A study of Mus musculus with 6 samples.

Results

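The genes described here are 9 regulators and receptors of central and quiescent T cells, chosen by name from a table of 29199 genes: the transcription factors Tcf7, Lef1, Bach2, Klf2 and Foxo1, the ID proteins Id2 and Id3, and the receptors Il7r and S1pr1. All 9 were among the 18321 genes that passed the filter on low counts. They were read in 6 total RNA libraries of regulatory CD4+ T cells (Treg) sorted from the spleen of mice 3 weeks after a bone marrow graft. The hosts were irradiated mice of the C57BL/6 J (B6) strain, or B6 mice that carry CD45.1, given a mixture of B6 and semi-allogeneic B6D2F1 bone marrow, together with Treg and naive conventional CD4+ T cells (Tconv). In both groups the Treg were wild-type (WT) cells from B6 Foxp3-Thy1.1 mice that had been expanded in culture with IL-2, TGFb and anti-CD3/CD28 beads before transfer, and were recovered by their Thy1.1 mark and their H-2Kb+ H-2Kd- phenotype. The groups differed in the Tconv: 3 libraries came from Treg transferred with WT Tconv and 3 from Treg transferred with HP1a KO Tconv. The latter were taken from Hp1a-/- mice, in which the CMV-cre transgene had removed a LoxP-flanked allele in every tissue, on a mixed 129/Sv and C57BL/6 background, and the WT Tconv came from control littermates. The mutant and control mice were matched for sex and were 6 to 12 weeks old. HP1α is a non-histone protein of heterochromatin. The question was which transcripts of the same WT Treg differ after they met Tconv with or without HP1α.

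Naive, central and resting T cells share a regulatory circuit. FOXO1 is kept in the nucleus when PI3K and AKT signalling is low, and there it sustains transcription of Klf2 and Il7r. KLF2 in turn sustains S1pr1, the receptor through which T cells follow sphingosine-1-phosphate out of lymphoid tissue. TCF1, the product of Tcf7, and LEF1 are HMG-box factors that maintain naive and central memory programmes and work with β-catenin and Groucho (TLE) partners. BACH2 is a repressor that competes with AP-1 factors and restrains effector differentiation. ID2 and ID3 lack a DNA-binding domain and hold E proteins away from DNA. IL7R binds IL-7 and supports survival. Central Treg are known to be rich in the transcription factors and receptors of this circuit, and effector Treg to be poor in them.

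Total counts per library ran from 87421755 to 119078882, and 22573 to 24626 genes had a count. The Treg markers Foxp3, Il2ra, Ctla4, Ikzf2, Cd4 and Cd3e were present in every library, with a summed level of 3802 to 4577 CPM (counts per 1000000 counts of the library). The replicate 3 library with WT Tconv held more transcripts of other cells than the rest: the summed level of 6 red cell genes was 5501 CPM against 370.2 to 688 CPM elsewhere, and that of 6 neutrophil genes was 1496 CPM against 35.2 to 182 CPM. B cell markers summed to 14.4 to 25.8 CPM. Of 6 endothelial and stromal markers, Pecam1 was 76.4, 69.8 and 66.2 CPM with WT Tconv and 86.8, 81.0 and 89.1 CPM with HP1a KO Tconv. Its groups did not overlap, and 23.0% of all genes tested showed the same on CPM scaled between libraries. The others, Cdh5, Kdr, Tek, Col1a1 and Pdgfrb, were at most 0.903 CPM in any library. Pecam1 alone does not tell which cells it came from. The part of these transcripts in the results was not tested. The labels do not say that the libraries of a group came from separate mice, so p-values measure the spread between these samples.

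The replicate 2 library with HP1a KO Tconv stood apart for the genes of this set. It lay below the mean of the other 2 libraries of its group for 7 of the 9 genes. Its median absolute log2 distance from those 2 libraries was 0.37 over the 9 genes and 0.16 over all genes tested, where the other libraries gave 0.06 to 0.26 over the 9 genes and 0.11 to 0.14 over all genes. The second largest distance over the 9 genes, 0.26, was that of replicate 3 of the same group, which lay above the other 2 libraries for 7 of them. Other values moved with it. Mitochondrial transcripts took 0.972% of its counts against 2.52% to 2.88% in the other 5 libraries, and the nuclear RNA Malat1 took 0.679% against 1.06% to 1.49%. Of the 6 Treg markers, Foxp3, Il2ra, Cd4 and Cd3e were lowest there (Foxp3 158 CPM against 199.6 to 254 CPM elsewhere), whereas Ikzf2 and Ctla4 were above the other 2 libraries of the group, and the markers summed to 4059 CPM, within the range of the other libraries. Among genes above 10 CPM, Spearman's rho between exonic length and distance from the group was -0.20 in that library and -0.08 to 0.15 in the others, a description across genes, which are not replicates. The part these differences play in the results was not tested. Each of the 9 genes is given with and without that library, which was singled out after its values were seen.

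**Figure D1:**
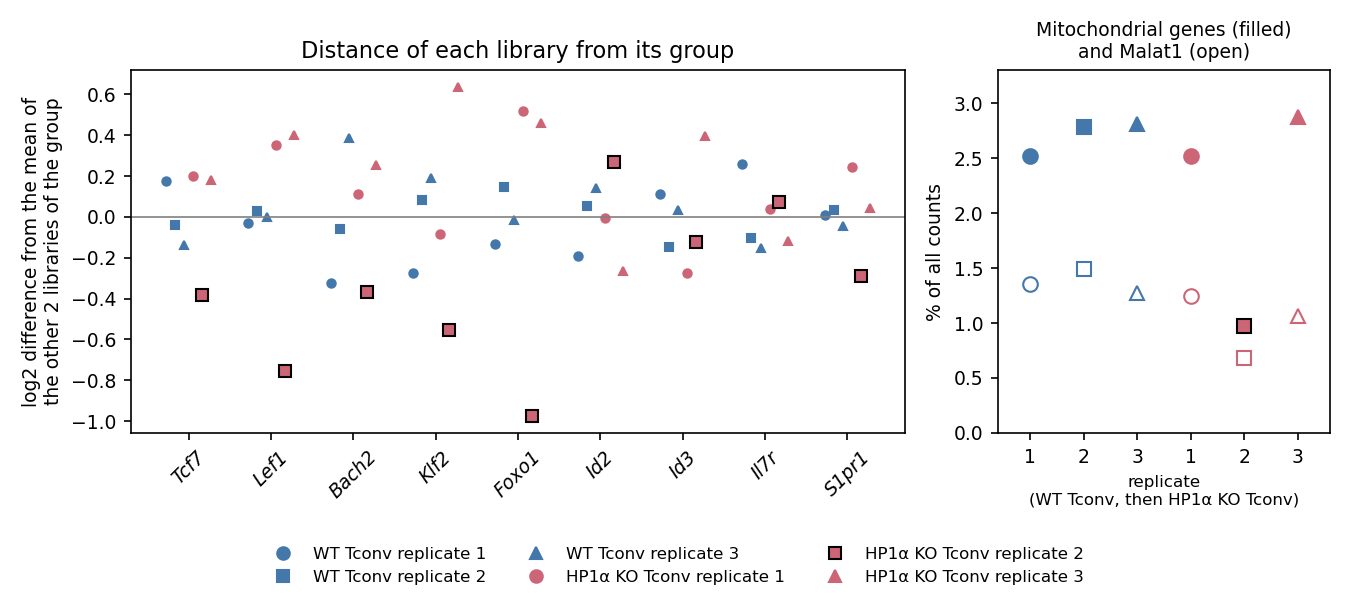
The left panel shows, for each of the 9 genes, the log2 difference of each library from the mean of the other 2 libraries of its group, and the right panel shows the percent of all counts taken by mitochondrial genes (filled) and Malat1 (open) in each library. Replicate 2 with HP1α KO Tconv, outlined in black, is lowest for Foxo1 at -0.98 and Lef1 at -0.75, and holds 0.972% mitochondrial counts.

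With all 6 libraries, none of the 9 genes passed the quasi-likelihood F-test of edgeR at an adjusted p under 0.05 (Benjamini-Hochberg over all genes), and neither did any gene of the table (0% called). Of the 9 genes, 6 had a fold change above 0 and 3 below. At an unadjusted p under 0.05, 1 of the 9 was called, Id3, beside 14.5% of all genes (6.98% higher and 7.52% lower with HP1a KO Tconv). DESeq2 called none of the 9 and 526 genes in all, 4.35% of those to which it gave an adjusted p. At an unadjusted p under 0.05 it called 3 of the 9, Klf2, Foxo1 and Id3, beside 9.23% of the genes to which it gave a p. On simulated counts with the spread of these libraries, edgeR and above all DESeq2 made more false calls than the threshold allows. The calls of DESeq2 are therefore given beside those of edgeR and not in their place. The groups did not overlap for 2 of the 9, Foxo1 and Id3, where 23.0% of all genes showed the same. The median log2 fold change was 0.02 over the 9 genes and -0.01 over all genes. The median absolute log2 fold change was 0.09 over the 9 genes and 0.17 over all genes. All genes include many of low level and were not matched to the 9 for level. In sorted bulk samples, fewer cells with a transcript and less of it per cell cannot be told apart.

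**Figure D2:**
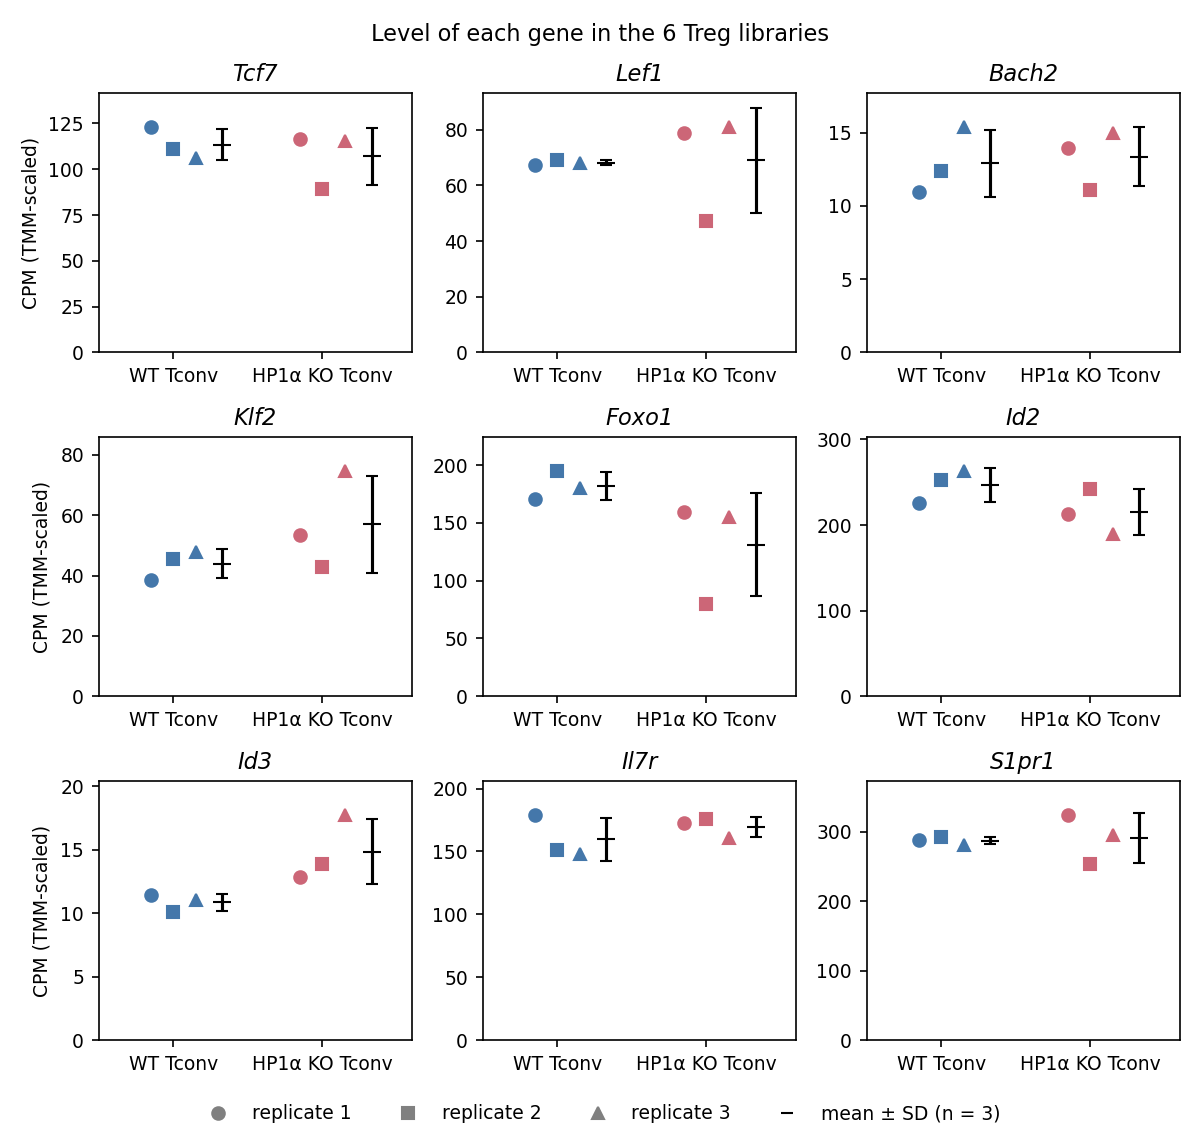
Each panel shows the level of 1 gene in CPM after TMM scaling, with 1 point per library and the mean ± SD of each group (n = 3) beside the points; the axes start at 0. The groups do not overlap for Foxo1 and Id3, and replicate 2 with HP1α KO Tconv (square) is the lowest of the 6 libraries for Tcf7, Lef1, Foxo1 and S1pr1.

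Without the replicate 2 library with HP1a KO Tconv, more of the 9 genes passed a threshold. At an unadjusted p under 0.05, edgeR then called 5 of the 9 genes, Lef1, Klf2 and Id3 higher and Foxo1 and Id2 lower, where 16.4% of all genes were called. None of the 5 passed an adjusted p under 0.05 by edgeR. DESeq2 called the same 5 genes at an adjusted p under 0.05 in those 5 libraries, where it called 1413 genes in all, 11.3% of those to which it gave an adjusted p. The groups then did not overlap for 6 of the 9 genes, 4 higher and 2 lower, beside 37.4% of all genes. That library was singled out after its distance over these same 9 genes was seen, and the other genes were not chosen in this way. The shares of the 9 genes and of all genes are therefore unlike, and setting them side by side is not a test of the set.

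**Figure D3:**
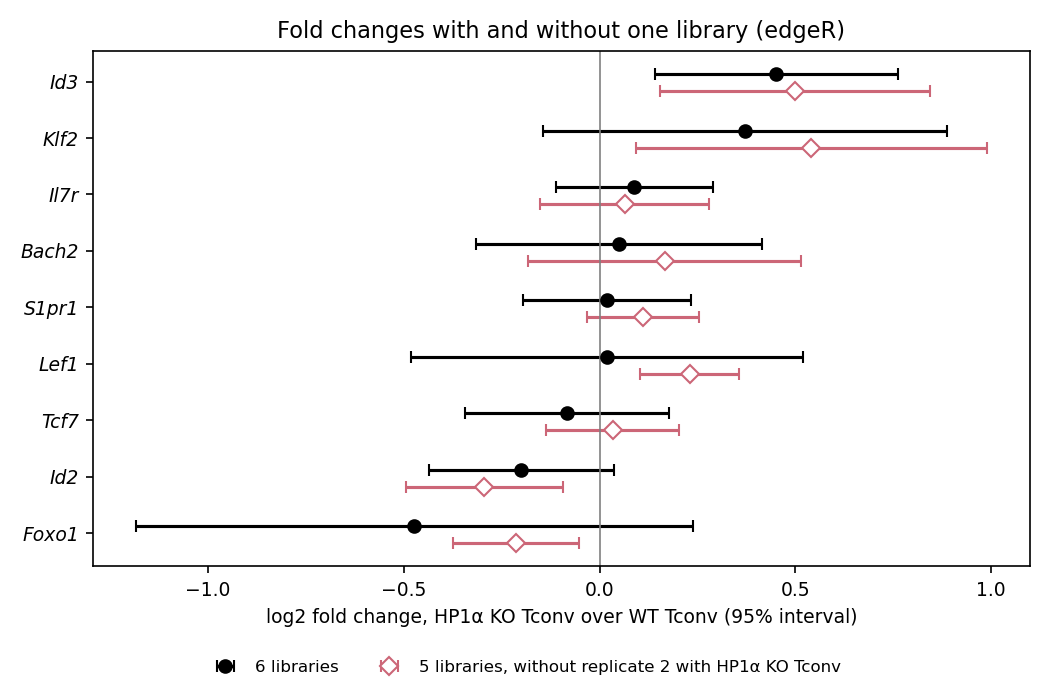
Log2 fold change of each gene, HP1α KO Tconv over WT Tconv, from edgeR with its 95% interval, for all 6 libraries (black circles) and for 5 libraries without replicate 2 with HP1α KO Tconv (open diamonds). The interval of Id3 lies above 0 in both, and that of Lef1 runs from -0.48 to 0.52 with 6 libraries and from 0.10 to 0.36 with 5.

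Id3 (ENSMUSG00000007872, GRCm39 chr4:135870808-135873066, plus strand), an inhibitor of E proteins and, with Id2, a guard of Treg identity, had the smallest p of the 9 genes. On the TMM-scaled CPM used for single genes, its level was 11.4, 10.1 and 11.0 CPM in replicates 1 to 3 with WT Tconv and 12.9, 13.9 and 17.7 CPM with HP1a KO Tconv. Every library with HP1a KO Tconv lay above every library with WT Tconv, with a gap of 1.45 CPM. The means were 10.8 ± 0.684 and 14.8 ± 2.57 CPM (SD, n = 3 each). The fold change was 1.37, or 0.45 on the log2 scale (SE 0.13, 95% interval 0.14 to 0.76). Its unadjusted p of 0.00979 ranked 782 among the 18321 genes, and the adjusted p was 0.229 by edgeR's quasi-likelihood test with Benjamini-Hochberg adjustment and 0.0521 by DESeq2. It was 0.50 on the log2 scale once the replicate 2 library with HP1a KO Tconv was left out, with an adjusted p of 0.194 by edgeR and 0.0324 by DESeq2. Without replicate 3 with HP1a KO Tconv, the highest library, it was 0.30.

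Id2 (ENSMUSG00000020644, GRCm39 chr12:25143798-25147282, minus strand) lay on the other side of 0. Its level was 225, 252 and 263 CPM with WT Tconv and 213, 242 and 189 CPM with HP1a KO Tconv. The 2 groups overlapped through replicate 2 with HP1a KO Tconv, the only one of that group above the lowest library with WT Tconv. The means were 247 ± 19.5 and 215 ± 26.6 CPM (SD, n = 3 each), a log2 fold change of -0.20 (SE 0.10, 95% interval -0.44 to 0.04, adjusted p = 0.423 by edgeR). Without that library the log2 fold change was -0.29, with an adjusted p of 0.191 by edgeR and 0.0276 by DESeq2. Without replicate 3 of the same group, its lowest library, it was -0.11.

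Because both are ID proteins, the ratio of Id2 to Id3 counts was taken within each library, where scaling cancels. It was 19.7, 25.0 and 23.9 with WT Tconv and 16.6, 17.5 and 10.7 with HP1a KO Tconv, so every library of the first group lay above every library of the second. The log2 ratio differed by -0.64 between the groups, with a two-sided exact permutation p of 0.1, the smallest that 3 against 3 libraries can give. Leaving out 1 library at a time moved this difference between -0.78, without replicate 2 with HP1a KO Tconv, and -0.42, without replicate 3. The ratio of Tcf7 to Lef1 counts, taken in the same way, was 1.83, 1.61 and 1.56 with WT Tconv and 1.48, 1.89 and 1.43 with HP1a KO Tconv. Those groups overlapped and the log2 difference was -0.07 (exact permutation p = 0.6), and -0.19 without replicate 2 with HP1a KO Tconv. Adjusted over the 2 ratios, the exact permutation p-values were 0.2 and 0.6.

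Foxo1 (ENSMUSG00000044167, GRCm39 chr3:52175757-52260642, plus strand), the forkhead factor at the head of the circuit, had every library with HP1a KO Tconv below every library with WT Tconv, though the size of the gap between the means rested on 1 of them. Its level was 171, 195 and 180.5 CPM with WT Tconv and 159, 79.5 and 155 CPM with HP1a KO Tconv. The nearest libraries of the groups were 11.7 CPM apart, and replicate 2 of the second group held 0.508 of the mean of the other 2. Only 0.815% of genes above 10 CPM were as far below their group in that library. The means were 182 ± 12.0 and 131 ± 44.8 CPM (SD, n = 3 each), a log2 fold change of -0.47 (SE 0.28, 95% interval -1.18 to 0.24), with an adjusted p of 0.511 by edgeR and 0.136 by DESeq2. Without that library the log2 fold change was -0.21 (95% interval -0.37 to -0.05), with an adjusted p of 0.211 by edgeR and 0.0452 by DESeq2. Without replicate 1 with HP1a KO Tconv it was -0.62.

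Lef1 (ENSMUSG00000027985, GRCm39 chr3:130903919-131018005, plus strand) was steady across WT Tconv libraries and spread with HP1a KO Tconv. Its level was 67.2, 69.0 and 68.0 CPM in the first group and 78.9, 47.2 and 80.8 CPM in the second. Replicates 1 and 3 with HP1a KO Tconv lay above every library with WT Tconv and replicate 2 lay below them all. The coefficient of variation was accordingly 1.30% with WT Tconv and 27.4% with HP1a KO Tconv. Counting error, which leaves out differences between samples, gives at most 1.46%. The means were 68.1 ± 0.888 and 69.0 ± 18.9 CPM (SD, n = 3 each), a log2 fold change of 0.02 (SE 0.20, 95% interval -0.48 to 0.52, adjusted p = 0.977 by edgeR). Without replicate 2 the log2 fold change was 0.23, with an adjusted p of 0.153 by edgeR and 0.00230 by DESeq2. Without replicate 3 of the same group it was -0.11, so the direction depended on which library was kept. The antisense gene Lef1os1 covers 16.3% of the exonic bases of Lef1 and had 72 to 157 counts, the highest in replicate 2 with HP1a KO Tconv, beside 4713 to 7964 counts of Lef1.

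Foxo1 and Lef1 were the members furthest below their group in the same library, so the stretches before their annotated starts are shown. They come from the RefSeq promoter table, built on GRCm38.p6, were matched to GRCm39, and stop at the first annotated exonic base. Capitals mark matches, searched on both strands, to the letters bound by factor families of this set or by the E proteins that ID proteins hold back: E-box CANNTG, FOXO TGTTTAC, TCF/LEF CTTTGAT, BACH/AP-1 TGANTCA and KLF CCACCC.
Foxo1: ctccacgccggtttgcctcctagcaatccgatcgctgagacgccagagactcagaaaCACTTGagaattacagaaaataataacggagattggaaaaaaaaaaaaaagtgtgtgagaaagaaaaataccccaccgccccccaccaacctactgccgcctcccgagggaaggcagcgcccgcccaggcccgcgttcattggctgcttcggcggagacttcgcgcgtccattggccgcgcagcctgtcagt
Lef1: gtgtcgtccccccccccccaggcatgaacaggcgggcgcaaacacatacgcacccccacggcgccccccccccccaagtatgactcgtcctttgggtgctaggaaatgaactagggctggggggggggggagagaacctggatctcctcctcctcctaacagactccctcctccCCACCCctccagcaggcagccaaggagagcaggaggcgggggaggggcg
The Foxo1 stretch is chr3:52175508-52175756, 249 bases on the plus strand, and holds 1 match, an E-box CACTTG 192 bases before the start. A match to CANNTG is present in 66.1% of the 32544 promoters of the table at that length. The Lef1 stretch is chr3:130903696-130903918, 223 bases on the plus strand, and holds 1 match, the KLF letters CCACCC 49 bases before the start, which 25.4% of promoters at that length hold. It comes from 1 of 4 entries of the table for Lef1, each of which holds a CANNTG match, here in the exonic bases left out. Neither stretch held the FOXO, TCF/LEF or BACH/AP-1 letters, which 3.15%, 3.20% and 6.72% of promoters hold at 249 bases. A match describes the letters in these windows and is not a site of binding. The table had an entry for 8 of the 9 genes, without S1pr1.

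Tcf7 (ENSMUSG00000000782, GRCm39 chr11:52143107-52174619, minus strand), which encodes TCF1, had a level of 123, 111 and 106 CPM with WT Tconv and 117, 89.1 and 116 CPM with HP1a KO Tconv. The groups overlapped, and replicate 2 with HP1a KO Tconv was again the lowest of the 6. The means were 113 ± 8.52 and 107 ± 15.6 CPM (SD, n = 3 each), a log2 fold change of -0.08 (SE 0.11, 95% interval -0.34 to 0.18, adjusted p = 0.766 by edgeR). Without that library the log2 fold change was 0.03.

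Bach2 (ENSMUSG00000040270, GRCm39 chr4:32238714-32586108, plus strand) had the lowest level per length of the set. It was 10.9, 12.4 and 15.4 CPM with WT Tconv and 14.0, 11.1 and 15.0 CPM with HP1a KO Tconv. The groups overlapped over nearly their whole range. The means were 12.9 ± 2.26 and 13.4 ± 2.00 CPM (SD, n = 3 each), a log2 fold change of 0.05 (SE 0.16, 95% interval -0.31 to 0.41, adjusted p = 0.909 by edgeR), which turned to -0.04 without replicate 1 with WT Tconv and was 0.17 without replicate 2 with HP1a KO Tconv.

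Klf2 (ENSMUSG00000055148, GRCm39 chr8:73072726-73075502, plus strand), the zinc-finger factor of quiescence and egress, had a level of 38.6, 45.6 and 47.9 CPM with WT Tconv and 53.4, 42.8 and 74.7 CPM with HP1a KO Tconv. Replicates 1 and 3 of the second group lay above every library of the first, and replicate 2 lay within it. The means were 44.0 ± 4.84 and 57.0 ± 16.2 CPM (SD, n = 3 each), a log2 fold change of 0.37 (SE 0.21, 95% interval -0.14 to 0.89), with an adjusted p of 0.484 by edgeR and 0.214 by DESeq2. It was 0.54 once replicate 2 of the second group was left out, with an adjusted p of 0.247 by edgeR and 0.0139 by DESeq2. Without replicate 3, its highest library, it was 0.13.

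The receptors had the smallest standard errors of the set. S1pr1 (ENSMUSG00000045092, GRCm39 chr3:115504071-115508721, minus strand), the egress receptor, had a level of 288, 292 and 281 CPM with WT Tconv and 324, 253 and 295 CPM with HP1a KO Tconv. The second group surrounded the first. The means were 287 ± 5.38 and 291 ± 35.8 CPM (SD, n = 3 each), a log2 fold change of 0.02 (SE 0.09, 95% interval -0.19 to 0.23, adjusted p = 0.944 by edgeR), and 0.11 without replicate 2 with HP1a KO Tconv. The direction of S1pr1 turned, to -0.053, without replicate 1 of the same group. Il7r (ENSMUSG00000003882, GRCm39 chr15:9505874-9530262, minus strand), the α chain of the IL-7 receptor, had a level of 179, 152 and 148 CPM with WT Tconv and 173, 176 and 161 CPM with HP1a KO Tconv. Its groups overlapped through replicate 1 with WT Tconv, the highest of the 6, and replicate 2 with HP1a KO Tconv did not stand apart. The means were 159.5 ± 17.0 and 169.7 ± 7.89 CPM (SD, n = 3 each), a log2 fold change of 0.09 (SE 0.09, 95% interval -0.11 to 0.29, adjusted p = 0.673 by edgeR), and 0.06 without replicate 2 with HP1a KO Tconv. Its size rested more on the WT Tconv libraries: it was 0.19 without replicate 1 (adjusted p = 0.464 by edgeR) and 0.04 without replicate 3.

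Levels between genes were compared per kilobase of exon. With WT Tconv the order was Id2 at 70.9 CPM per kilobase, S1pr1 at 69.5, Il7r at 34.2, Tcf7 at 29.5, Klf2 at 20.6, Foxo1 at 19.6, Lef1 at 7.29, Id3 at 6.05 and Bach2 at 1.29. Id2 and S1pr1, Il7r and Tcf7, and Klf2 and Foxo1 are neighbours whose libraries overlapped, and the other neighbours did not. S1pr1 stood at the 97.2nd percentile of the genes tested and Bach2 at the 39.7th. With HP1a KO Tconv, S1pr1 at 70.4 CPM per kilobase and Id2 at 61.7 changed places, as did Id3 at 8.28 and Lef1 at 7.39, and the libraries of both pairs overlapped. The place of Lef1 depended on the length used: with its canonical transcript in place of all exons, an alternative chosen after seeing the data, it was 26.7 CPM per kilobase with WT Tconv and stood above Klf2 at 22.0 and Foxo1 at 21.0.

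As a description over 6 libraries that share the replicate 2 library with HP1a KO Tconv, Tcf7, Lef1, Foxo1 and S1pr1 had Pearson's r of log2 CPM of 0.85 between Tcf7 and Lef1, 0.82 between Tcf7 and Foxo1, 0.80 between Tcf7 and S1pr1, 0.80 between Lef1 and Foxo1, 0.90 between Lef1 and S1pr1, and 0.68 between Foxo1 and S1pr1. Klf2 varied with Id3 (r = 0.76) and with Bach2 (r = 0.75), and Id2 against Id3 (r = -0.82). Among the 8839 genes outside the set with a mean of at least 10 CPM, the pair most like Foxo1 were Nus1 and Sos1 (r = 0.997 for both), and the pair most like Lef1 were Ogdh and Mknk1 (r = 0.996 for both). Etv5 and Dip2b were most like Tcf7 (r = 0.996 and 0.992), Rrp12 and Ctdp1 most like Bach2 (r = 0.992 and 0.974), and 5830417I10Rik and Klhdc3 most like Klf2 (r = 0.996 and 0.989). Klf10 and Csrnp1 were most like Id2 (r = 0.996 for both), Gpr34 and Sh3bp2 most like Id3 (r = 0.996 and 0.988), Lipo3 and Fcf1 most like Il7r (r = 0.990 and 0.985), and Rnf144a and Cox20 most like S1pr1 (r = 0.990 and 0.984). With 6 points such values are common: between 34 and 532 of the candidates passed r = 0.9 for each member.

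Genes of the same pathways and, in 1 list, of effector Treg were read in 7 lists of 102 genes, of which 97 were tested. None passed an adjusted p under 0.05 by edgeR, and 33, or 34.0%, passed an unadjusted p under 0.05, where 14.5% of all genes did. DESeq2 called 14 of the 91 to which it gave an adjusted p, or 15.4%, beside 4.35% of all genes. Without replicate 2 with HP1a KO Tconv it called 27 of 93, or 29.0%, among them Klf3, Axin2, Bach1 and Stat5b, beside 11.3% of all genes. Without replicate 3 with WT Tconv it called 3 of 92, or 3.26%, Tcf3, Cxcr4 and Rora, beside 1.35% of all genes, so that of its calls with all 6 libraries, those other than Cxcr4 and Rora were lost. At an unadjusted p under 0.05, edgeR called 26 of the list genes without that library, beside 11.2% of all genes, and 40 without replicate 2 with HP1a KO Tconv, beside 16.4% of all genes. The lists were chosen with earlier results of these data known and were not matched to all genes for level. Their shares beside those of all genes are therefore a description and not a test of these pathways. Genes named here and below beyond the 2 of smallest p in each list were chosen after their values were seen.

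Of 18 genes of the FOXO1, KLF2 and quiescence list, 1 was higher and 6 were lower at an unadjusted p under 0.05, and the median log2 fold change was -0.17. Without replicate 2 with HP1a KO Tconv, 4 were higher and 6 lower, with a median of -0.11. Tob1 and Tob2, antiproliferative proteins of resting T cells, had the smallest p. Tob1 was 26.4 ± 1.04 and 19.3 ± 1.83 CPM with WT and HP1a KO Tconv (SD, n = 3 each), a log2 fold change of -0.45 with an adjusted p of 0.209 by edgeR and 0.00677 by DESeq2. Tob2 was 194 ± 13.1 and 142 ± 19.4 CPM, also -0.45 on the log2 scale (DESeq2 adjusted p = 0.0101), and DESeq2 called both without replicate 2 with HP1a KO Tconv and neither without replicate 3 with WT Tconv. Btg1, a relative of the TOB proteins, was the only other gene of the list that DESeq2 called (log2 fold change -0.36, adjusted p = 0.0193). Ccr7, a chemokine receptor of central T cells, had a log2 fold change of -0.31 (adjusted p = 0.352 by edgeR).

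Of 18 TCF/LEF partners and targets, 1 was higher and 3 were lower at an unadjusted p under 0.05, with a median log2 fold change of 0.02. Axin2, a Wnt target, gave 0.26 (adjusted p = 0.268 by edgeR) and Myb -0.38 (adjusted p = 0.252 by edgeR). DESeq2 called 0 of them. Without replicate 2 with HP1a KO Tconv, 4 were higher and 2 lower, and DESeq2 called 4. Without replicate 3 with WT Tconv, 1 was higher and 1 lower. Of 7 ID proteins, E proteins and the E-box repressors Zeb1 and Zeb2, 6 were tested, of which 1 was higher and 2 were lower, with a median of -0.41, and without replicate 3 with WT Tconv 1 was higher and 1 lower, with a median of -0.26. Without replicate 2 with HP1a KO Tconv, 0 of 7 were higher and 1 was lower, with a median of -0.33. Zeb1, a zinc-finger repressor that binds E-boxes, was 125 ± 9.42 and 101 ± 3.97 CPM (SD, n = 3 each), a log2 fold change of -0.30 (DESeq2 adjusted p = 0.0397). The E protein gene Tcf3 was the higher gene, at 34.1 ± 5.32 and 44.5 ± 6.06 CPM (SD, n = 3 each), a log2 fold change of 0.38 (adjusted p = 0.274 by edgeR and 0.0953 by DESeq2). The E protein gene Tcf4 gave -0.57 (adjusted p = 0.248 by edgeR) at 3.87 CPM with WT Tconv, and the related Zeb2 was 12.4 CPM in the library rich in red cell and neutrophil transcripts against 3.59 to 5.33 CPM elsewhere.

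Of 12 BACH2 partners and antagonists, 1 was higher and 3 were lower at an unadjusted p under 0.05, with a median log2 fold change of -0.16. Without replicate 3 with WT Tconv, 2 were higher and 1 lower, with a median of -0.05. Mafg, a small MAF partner, gave -0.33 and the AP-1 gene Fos 0.30 (adjusted p = 0.246 and 0.263 by edgeR). Of 12 genes of IL-7 receptor signalling, 2 were higher and 0 lower, with a median of -0.0037. Those were Bcl2, the survival protein that IL-7 sustains, at 60.5 ± 1.65 and 73.9 ± 5.04 CPM (SD, n = 3 each; log2 fold change 0.29, DESeq2 adjusted p = 0.0535), and Gfi1, a repressor, at 29.7 ± 4.34 and 41.4 ± 5.97 CPM (SD, n = 3 each; log2 fold change 0.48, DESeq2 adjusted p = 0.0311). Without replicate 2 with HP1a KO Tconv, 3 genes of that list were higher and 2 lower, and DESeq2 called Bcl2 and Stat5b but not Gfi1.

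Of 15 genes of S1P receptors and egress tested of 19 listed, 4 were higher and 2 were lower at an unadjusted p under 0.05, with a median log2 fold change of 0.06. Without replicate 3 with WT Tconv, 3 were higher and 2 lower, with a median of 0.03, and DESeq2 called Cxcr4 alone. Without replicate 2 with HP1a KO Tconv, 5 were higher and 3 lower, with a median of 0.05, and DESeq2 called 8 genes in place of 4. Beside S1pr1 at 0.02, S1pr4, a second S1P receptor of lymphocytes, was 84.1 ± 7.93 and 111 ± 5.50 CPM (SD, n = 3 each), a log2 fold change of 0.40 with an adjusted p of 0.209 by edgeR and 0.00795 by DESeq2. Gna13, the G protein subunit of S1P receptors that retain cells, gave -0.42 (DESeq2 adjusted p = 0.0115). DESeq2 also called Coro1a, an actin regulator of egress, at 0.37 (adjusted p = 0.0225), and Cxcr4, a chemokine receptor that retains cells in marrow, at -0.89 (adjusted p = 0.000395). The fold changes of Sphk1 and Mfsd2b, at -2.46 and -1.79 on the log2 scale, moved with the library rich in red cell transcripts, where Mfsd2b was 24.6 CPM against 2.30 to 3.63 CPM elsewhere.

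The last list held 16 genes of effector Treg, which are known to be poor in the transcription factors and receptors of the set. Of these 16 genes, 1 was higher and 6 were lower at an unadjusted p under 0.05, with a median log2 fold change of -0.19. Rora, a nuclear receptor of effector Treg, was 382 ± 19.2 and 264 ± 25.8 CPM (SD, n = 3 each), a log2 fold change of -0.53 with an adjusted p of 0.209 by edgeR and 0.000130 by DESeq2. Cd44, an adhesion receptor of activated T cells, gave -0.29 (DESeq2 adjusted p = 0.0423). DESeq2 also called Ctla4 at -0.38, Il10 at -0.52 and Lag3 at -0.55 (adjusted p = 0.0414, 0.0180 and 0.0193), receptors and a cytokine through which Treg suppress. Without replicate 3 with WT Tconv, DESeq2 called Rora alone of the list, and Cd44, Ctla4, Il10 and Lag3 were lost. Without replicate 2 with HP1a KO Tconv it called the same genes as with all libraries. The higher gene was Pdcd1, the receptor PD-1, at 89.3 ± 9.28 and 114 ± 21.0 CPM (SD, n = 3 each), a log2 fold change of 0.35 (adjusted p = 0.319 by edgeR and 0.125 by DESeq2), and edgeR called 0 genes of the list higher at an unadjusted p under 0.05 without replicate 2 with HP1a KO Tconv or without replicate 3 with WT Tconv, where it called 6 and 7 lower. Klrg1 and Itgae gave 0.10 and 0.09, and Gzmb, the effector protease granzyme B, gave -0.0082.

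**Figure D4:**
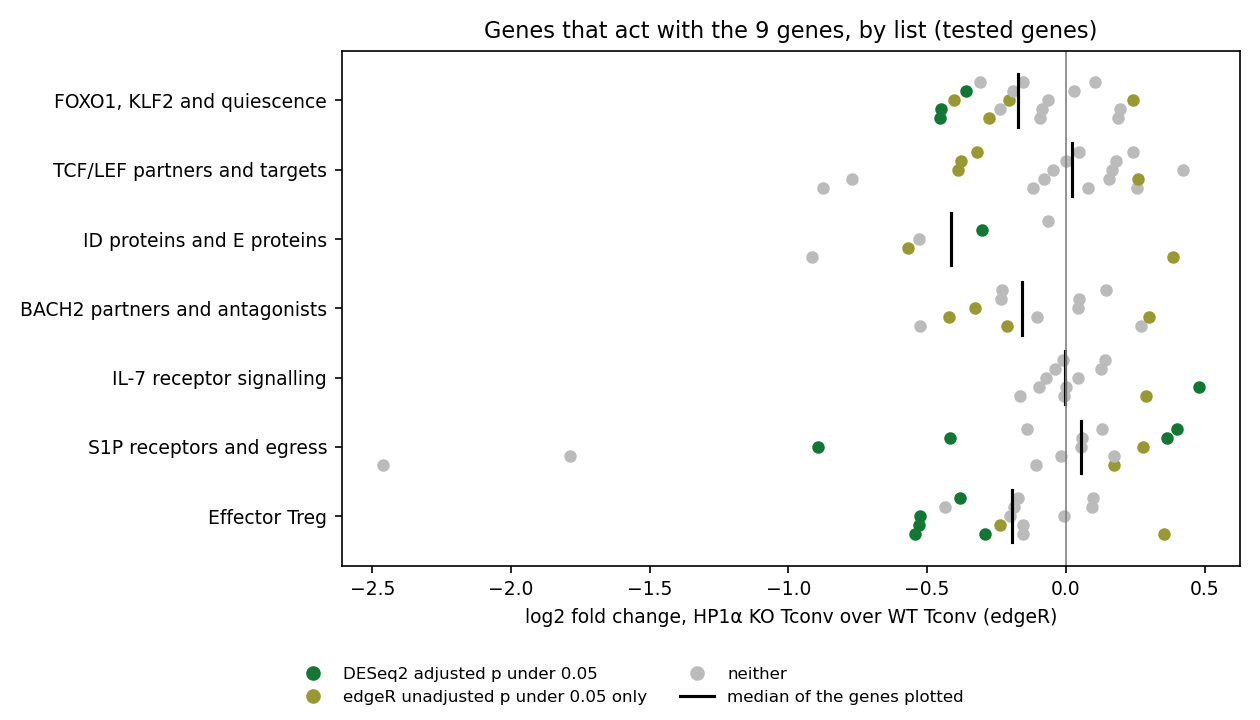
Log2 fold change from edgeR, HP1α KO Tconv over WT Tconv, of the tested genes of 7 lists, with 1 point per gene, colours for the test each passed and a black bar at the median. The medians run from -0.41 for the list of ID proteins, E proteins and Zeb genes to 0.06 for the S1P list, and those of the effector Treg list at -0.19, the FOXO1 and KLF2 list at -0.17 and the BACH2 list at -0.16 also lie below 0, with that of the IL-7 list at -0.0037.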

How the data were processed

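Total RNA was taken from sorted Treg with 3 libraries in each group, and stranded libraries were sequenced. Reads were trimmed by the authors and mapped with STAR to GRCm39 with an Ensembl annotation. The authors deposited estimated counts per gene from Salmon, not normalized and held as whole numbers. Estimated counts share ambiguous reads between overlapping genes by a model. Whether counting used the strand is not given in the sources used here, so reads of Tcf7, Lef1, Bach2, Foxo1, Id2, Id3 and S1pr1 and of their antisense partners may not be told apart.

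Counts of all genes were fitted in edgeR 4.0.16 and tested by its quasi-likelihood F-test in R 4.3.3 (TMM scaling, filterByExpr, robust = TRUE, group as sole term), with Benjamini-Hochberg adjustment over all 18321 genes tested, and the 9 genes were read from that fit. Intervals use the moderated degrees of freedom of the test. DESeq2 1.42.0 (its adjusted p over genes left after its own filter), limma 3.58.1 with voom, other scalings and filters, a replicate block and the omission of each library were alternatives. DESeq2 with each library left out, list counts without 2 of the libraries, and levels by canonical transcript were added after seeing the data. The fits were tested on simulated data, where all recovered the size of the changes, and where edgeR and above all DESeq2 made more false calls than the threshold allows.

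Totals of 87421755 to 119078882 counts give each of the 9 genes at least 975 counts per library, so that counting error is at most 3.20%. Positions and exonic lengths are from GENCODE M39, a release other than the one the authors used, and 28854 of 29199 identifiers matched it. Named genes were the 9 members, the 2 genes of smallest unadjusted p in each list, and the 2 genes most correlated with each member. Further list genes were named after their values were seen. The members and lists were chosen with earlier results of these data known.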

Additional observations from a re-analysis of the deposited data

How the results depend on the processing

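The 0 calls among the 9 genes at an adjusted p under 0.05 were unchanged under every edgeR and limma setting run and in DESeq2 with all libraries. The number of genes called over the table was 0 by edgeR, and 1 with upper quartile scaling, 38 with no filter beyond 1 count, 526 with DESeq2 and 1 with the replicate block. With 1 library left out at a time it ran from 0 to 2 by edgeR. By DESeq2 it was 328, 279 and 181 without replicates 1, 2 and 3 with WT Tconv, and 681, 1413 and 318 without replicates 1, 2 and 3 with HP1a KO Tconv. Members called by DESeq2 then ran from 0 to 5: 5 without replicate 2 with HP1a KO Tconv and 1, Id3 (0.54 on the log2 scale, adjusted p = 0.0242), without replicate 1. At an unadjusted p under 0.05, the members called with 1 library left out ran from 1 to 5, beside 10.4% to 16.4% of all genes by edgeR and 7.92% to 12.4% by DESeq2.

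The log2 fold change of Lef1 turned to -0.027 with limma-voom and -0.021 with the replicate block, and ran from -0.11 to 0.23 with 1 library left out by edgeR. By DESeq2 it turned to -0.093 without replicate 1 and -0.11 without replicate 3 with HP1a KO Tconv. That of Bach2 ran from -0.044 to 0.20 with 1 library left out, and by DESeq2 turned to -0.060 without replicate 1 with WT Tconv and -0.039 without replicate 3 with HP1a KO Tconv. S1pr1 ran from -0.053 to 0.11, with -0.069 by DESeq2 without replicate 1 with HP1a KO Tconv, and Tcf7 from -0.14 to 0.033, with 0.029 by DESeq2 without replicate 2 with HP1a KO Tconv. The log2 difference of the Tcf7 to Lef1 ratio ran from -0.19 to 0.0059 and that of Id2 to Id3 from -0.78 to -0.42. Klf2, Foxo1, Id2, Id3 and Il7r kept their direction in all 14 edgeR and limma settings and in DESeq2. The cause of these changes was not tested.

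Same-numbered libraries correlated at -0.07, 0.17 and 0.12 in their deviations from the group means, and not every library matched its own number best, so the numbers were not read as pairs. The replicate block changed no call among the 9 genes.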
